A study of Homo sapiens with 14 samples.

Results

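LNCaP-abl cells under dilazep were compared with LNCaP cells under the same drug, with no untreated array in the comparison. The arrays were chosen by their labels, which gives 3 arrays of LNCaP-abl and 3 of LNCaP, 6 of the 14 arrays in the series. LNCaP is an androgen-sensitive human prostate cancer cell line, here grown in RPMI with 10% fetal bovine serum. LNCaP-abl is its subline adapted to growth without androgen, here grown in phenol-red-free RPMI with 10% charcoal-stripped serum, from which steroid hormones are largely removed. The groups compared were LNCaP-abl given 50 µM dilazep for 48 h (replicates 1, 2 and 3) and LNCaP given 50 µM dilazep for 48 h (replicates 1, 2 and 4). The 8 vehicle arrays of the series, 2 with water (H2O) and 2 with DMSO in each line, served to give the line difference without the drug. The lines were grown in different media throughout, so line and medium cannot be told apart in any difference given here. No label says that the replicates were separate cultures. The p-values then measure only the spread between arrays of the same group, which may be technical. That spread was estimated from all 14 arrays, so the 8 vehicle arrays also enter each p-value. The vehicle arrays shared the normalisation too.

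Dilazep blocks the uptake of adenosine into cells by equilibrative nucleoside transporters and was given in this series to target GATA2, a zinc finger transcription factor that helps the androgen receptor reach its sites in prostate cells. Cells that divide raise the genes of DNA replication through E2F factors and those of mitosis through MuvB complexes. MuvB complexes bind a short promoter element called the cell cycle homology region. Cells short of amino acids or under other stress make more of the transcription factor ATF4, which drives amino acid transport and synthesis genes. In prostate cells the androgen receptor drives kallikreins and other secretory genes, and lines that grow without androgen often keep part of that programme.

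Signals are given as normalised levels on a log2 scale, and a line difference is the mean level in LNCaP-abl minus that in LNCaP. A gene was called where its adjusted p in limma, a linear model fitted across all genes, was under 0.05. Between 17925 and 18807 probes were detected per LNCaP-abl dilazep array and between 18482 and 18912 per LNCaP dilazep array. Arrays of the same line correlated at 0.985 to 0.991 over the kept probes, and arrays of different lines at 0.932 to 0.943. Correlations of this kind share the probes' own brightness and are descriptions only. No pair of arrays was identical, and the number of arrays limits the precision. Where no array of a group detected a gene's probe, the gene had only a bound there, and such a fold is a lower limit, taken over the lowest level detected on each array of the dimmer group, or over the probe's own level where that was higher.

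Most luminal epithelial markers on the array were detected in both lines, and so were most neuroendocrine ones. These counts therefore do not set a luminal identity apart. Of 13 luminal epithelial markers on the array, 9 to 10 were detected per LNCaP-abl dilazep array and 10 to 11 per LNCaP dilazep array, and their summed normalised signal was 28831 to 29647 in LNCaP-abl and 23838 to 25326 in LNCaP. KRT19 was detected on none of the 6 arrays. Of 7 neuroendocrine markers, 5 were detected on each LNCaP-abl array and 4 on each LNCaP array (summed signal 2108 to 2495 and 2194 to 2435), and synaptophysin (SYP) was detected on none. Basal and mesenchymal markers had 1 to 2 of 4 detected in LNCaP-abl and 2 of 4 in LNCaP (337 to 391 and 374 to 397), and fibronectin (FN1) was not detected. Fibroblast markers had 1 to 2 of 2 detected in LNCaP-abl and 2 of 2 in LNCaP (88 to 106 and 89 to 117). Immune markers had 2 to 3 of 6 detected in either line (1348 to 1456 and 1128 to 1646) with CD14 undetected. Endothelial markers had 0 to 1 of 2 in LNCaP-abl and 1 of 2 in LNCaP (52 to 66 and 121 to 146), with PECAM1 undetected. These are bulk RNA samples, in which fewer cells of a type and less RNA per cell cannot be told apart.

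Under dilazep the lines differed at most of the genes tested. Of 11983 genes, 6540 were called (54.6%), 3088 higher in LNCaP-abl (25.8%) and 3452 lower (28.8%). A called difference of at least 1 on the log2 scale was found at 2051 genes (17.1%), 924 higher and 1127 lower, and one of at least 3 at 146. Without background correction 840 genes passed 1 on the log2 scale, and with the authors' processed values 575 did. With median scaling in place of quantile normalisation, the median of all genes was -0.21 and 29.9% of the calls were higher, against 47.2% here. With vehicle, 5871 genes were called (49%), 3006 higher in LNCaP-abl (25.1%) and 2865 lower (23.9%), with 1235 of at least 1 and 124 of at least 3. The median absolute line difference was 0.42 under dilazep and 0.31 with vehicle, and the median of all genes was -0.03 under dilazep and 0.00 with vehicle. The groups of 3 arrays did not overlap at 7458 genes (62.2%), of which 6356 were among the called. Only a bound was available for 319 of the genes called higher, whose probe no LNCaP array detected, and for 476 called lower, whose probe no LNCaP-abl array detected. Another 21 called genes were above background in neither group, and no fold is given for them. The median SE of a difference was 0.14.

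Whether the line difference was itself another under dilazep than with vehicle was tested in the same fit, as the difference under dilazep minus that with vehicle. This change was called at 4056 genes (33.8%), more positive under dilazep at 1907 (15.9%) and more negative at 2149 (17.9%). Genes called the same way under both conditions numbered 3479, and at 2432 of them the change was not called. Genes called under dilazep with a change of the same sign, and not called with vehicle, numbered 1574. Opposite calls under the 2 conditions were found at 489 genes, 216 higher under dilazep and lower with vehicle, and 273 lower under dilazep and higher with vehicle. The treatment text of the vehicle arrays names another compound, bufalin, so these arrays may come from a separate experiment. A shift between experiments that is equal in both lines cancels in the change, and one that differs by line does not. Whether there was such a shift was not tested.

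**Figure D1:**
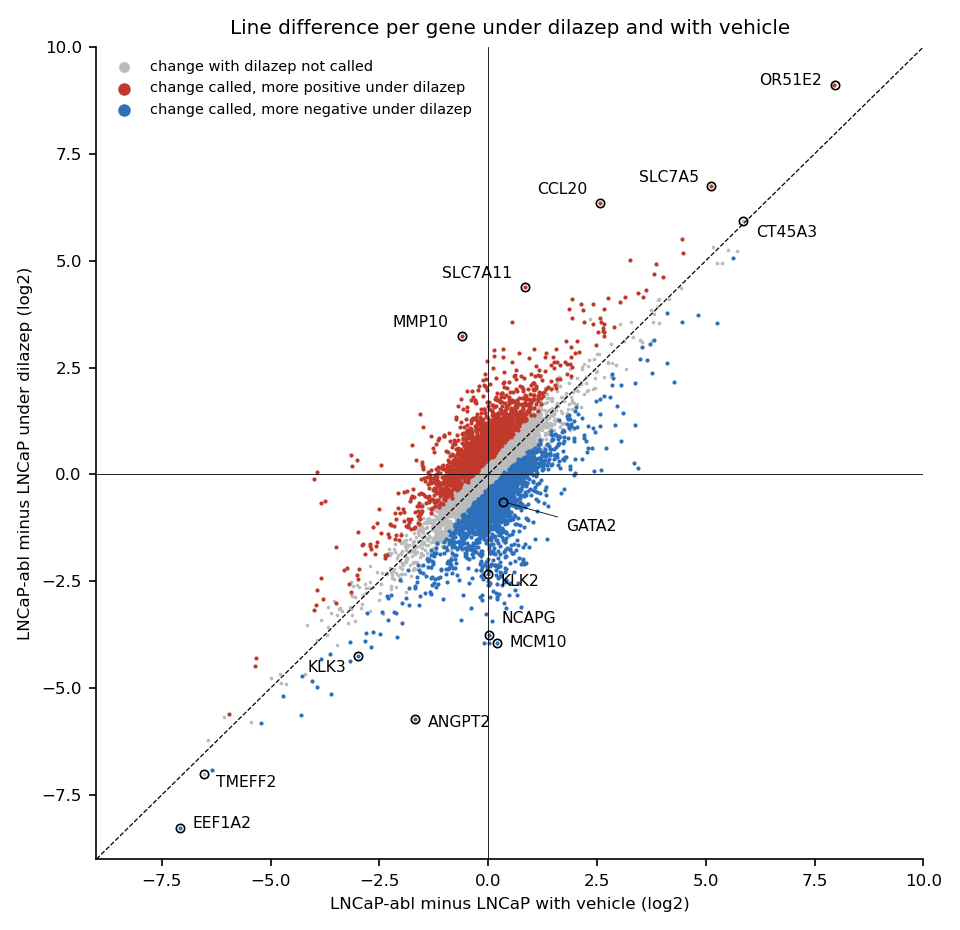
Each point is 1 of 11983 genes. The y axis gives LNCaP-abl minus LNCaP under dilazep and the x axis the same with vehicle, both log2, the dashed line marks equality, and colour marks genes whose change was called. OR51E2 (9.11) and EEF1A2 (-8.28) lie at the ends, near the dashed line, while NCAPG and MCM10 lie far below it near 0 on the x axis.

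The genes furthest apart between the lines under dilazep were a prostate-enriched G protein-coupled receptor, an amino acid transporter, a chemokine and several cancer-testis antigens on the higher side. OR51E2, an olfactory receptor family member known as a prostate-specific receptor, had levels of 14, 14.02 and 13.94 in LNCaP-abl and 5.01, 4.61 and 5.01 in LNCaP, where no array detected it. It was at least 405-fold higher in LNCaP-abl (difference 9.11, SE 0.13, adjusted p = 3.9e-13 in limma). With vehicle the difference was 7.96 and the change of 1.16 was called.

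SLC7A5, which imports large neutral amino acids, stood at 11.64, 11.60 and 11.62 in LNCaP-abl and at 4.88, 4.89 and 4.83 in LNCaP. No LNCaP dilazep array detected its probe, and it was at least 78.6-fold higher in LNCaP-abl (adjusted p = 1.2e-13 in limma). All 4 LNCaP vehicle arrays did detect it, at a mean of 6.07 ± 0.05 (SD), so the vehicle difference of 5.13 was measured on both sides. CCL20, the chemokine ligand of CCR6, gave 11.04, 11.03 and 11 in LNCaP-abl and 4.55, 4.81 and 4.64 in LNCaP, at least 51.9-fold higher in LNCaP-abl. Its change of 3.79 (SE 0.16, adjusted p = 4.3e-08 in limma) came from a vehicle difference of 2.56.

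The other 9 of the 12 largest higher differences, among genes with a single symbol that were detected throughout at least 1 group, lay between 4.96 and 5.94. Genes with a placeholder symbol (LOC and a number) or the joined symbol of a read-through transcript were passed over. CT45A3 (5.94, at least 48.7-fold), PAGE1 (5.22), MAGEA4 (5.18) and CTAG2 (5.06, at least 21.5-fold) are X-linked cancer-testis antigens, which normal adult tissues make mostly in germ cells, and NXF2 (5.50) is a testis form of the mRNA export factor. Probes of such families of near-identical genes may not tell the copies apart. HTATIP2 (5.32), an oxidoreductase family protein, IL32 (5.26, at least 25.2-fold), a cytokine, LXN (5.0), a carboxypeptidase inhibitor, and EPHX4 (4.96), of the epoxide hydrolase family, completed them. Other probes gave 2.76 for IL32 and 2.48 for CTAG2. NXF2, HTATIP2 and EPHX4 were each detected on 1 of 3 LNCaP dilazep arrays, and LXN on 2 of 3. That the groups of 3 arrays did not overlap was a condition of entry for all 12 genes, and it held at 62.2% of all genes tested. The change with dilazep was called at MAGEA4 (0.71), NXF2 (1.03), LXN (1.75) and CTAG2 (-0.56), and not at CT45A3, PAGE1, HTATIP2, IL32 and EPHX4.

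The largest lower difference was that of EEF1A2, the elongation factor form otherwise known from muscle and neurons. It had 5.44, 4.95 and 5.16 in LNCaP-abl, detected on 1 of 3 arrays, against 13.48, 13.51 and 13.40 in LNCaP (-8.28, SE 0.15, adjusted p = 2.3e-12 in limma). TMEFF2, a transmembrane protein with follistatin-like domains, had 5.02, 4.85 and 5.46 in LNCaP-abl against 12.20, 12.10 and 12.08 in LNCaP (-7.02). Both lay near or under the detection limit in LNCaP-abl and among bright probes in LNCaP, and the vehicle differences were -7.07 for EEF1A2 and -6.53 for TMEFF2.

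ANGPT2, a vascular growth factor, differed from the rest of these in its vehicle difference. It had 5.31, 4.99 and 4.81 in LNCaP-abl under dilazep, with no array above background, against 10.86, 10.81 and 10.60 in LNCaP. It was at least 42.4-fold lower, and other probes gave -4.66 and -2.72. With vehicle the difference was only -1.68, and the change of -4.04 (SE 0.18, adjusted p = 5.6e-08 in limma) rests on a bound in LNCaP-abl under both conditions.

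The remaining lower genes had no LNCaP-abl dilazep array above background. They were TMEM205 (at least 76.4-fold lower), PMEPA1 (at least 45.0-fold), an androgen-induced regulator of TGF-beta signalling, BCHE (at least 44.0-fold), the cholinesterase of plasma, CBLN2 (at least 43.9-fold), a synapse organiser, and MAP1LC3A (at least 42.1-fold), an LC3 protein of autophagosomes. RALYL (at least 38.0-fold), an RNA-binding protein, DSEL (at least 27.6-fold), of the dermatan sulfate epimerase family, SYT4 (at least 27.3-fold), a synaptotagmin of secretory vesicles, and COX7B2 (at least 24.4-fold), a testis form of a cytochrome c oxidase subunit, followed. Other probes gave -0.56 and -4.14 for PMEPA1 and -3.35 for DSEL. In LNCaP these 9 genes had mean levels between 9.96 and 11.61.

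**Figure D2:**
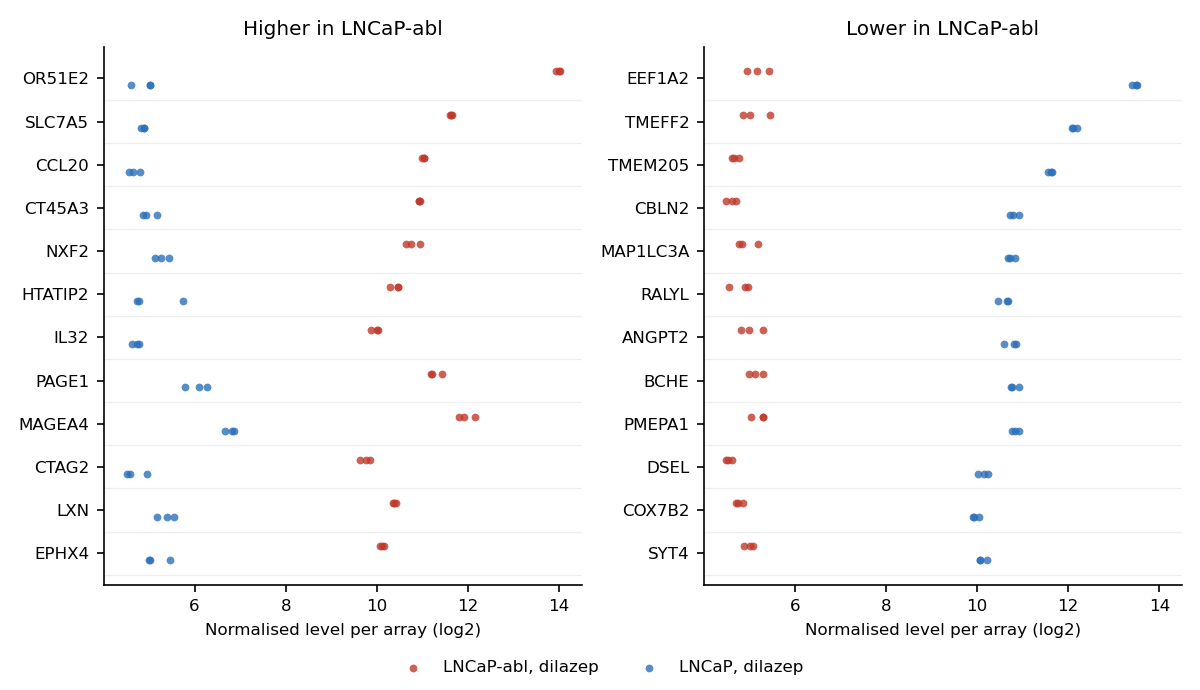
Normalised level (log2) on each of the 6 dilazep arrays for the 12 largest called differences in each direction, with LNCaP-abl arrays in red above LNCaP arrays in blue. Genes with placeholder or read-through symbols were passed over. That the groups do not overlap was a condition of entry for all 24 genes. Most arrays at the dim end lie near the lowest detectable level, and those of MAGEA4 and PAGE1 in LNCaP lie above it.

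Several of the largest differences were as large without the drug. By size, the 6 largest in each direction that were called the same way with vehicle, and whose change was not called, began with CT45A3 (5.94 under dilazep and 5.86 with vehicle) and TMEFF2 (-7.02 and -6.53). HENMT1, which methylates small RNAs of the germ line, was at 4.94 and 5.26, SPON2, a secreted matrix protein, at -4.90 and -4.65, and KIF1A, a kinesin of synaptic vesicles, at -4.87 and -4.76. CBLN2 (-6.21 and -6.43), RALYL (-5.79 and -5.44) and BCHE (-5.67 and -6.07) belong here too. A change that is not called does not show that the differences are equal.

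Genes of DNA replication were lower in LNCaP-abl than in LNCaP under dilazep almost throughout. Of 40 measured genes, 35 were lower, 0 were higher and 5 were not called, with a median difference of -1.56 (-0.03 over all genes tested) and of -1.54 with 8 members set to their bound. With vehicle the median was 0.06. Among all genes tested, 28.8% were lower under dilazep and 25.8% higher. The change was called more negative at 33 of 40 and more positive at 0, where 17.9% and 15.9% of all genes were.

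The helicase and licensing genes were lower at 15 of 18 (median -1.85), the polymerases, clamp and ligase genes at 14 of 14 (median -1.35) and the genes of nucleotide supply and entry into S phase at 6 of 8 (median -1.79). Over all genes 28.8% were lower. MCM10, which starts the helicase, had 5.29, 5.74 and 5.34 in LNCaP-abl against 9.24, 9.40 and 9.57 in LNCaP (-3.95, SE 0.13, adjusted p = 3.4e-10 in limma). Its other probe gave -1.57. CDC45, which completes the replicative helicase, had 4.76, 4.82 and 5.33 in LNCaP-abl, all below background, against 9.02, 8.91 and 8.83 in LNCaP, and was at least 11.9-fold lower. All LNCaP-abl arrays lay under all LNCaP arrays at both genes. The groups did not overlap, in either direction, at 62.2% of all genes tested.

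GINS2, another helicase subunit, had 5.87, 5.70 and 5.67 in LNCaP-abl against 9.20, 9.23 and 9.09 in LNCaP (-3.43, SE 0.10), and DTL, which marks the licensing factor CDT1 for destruction, was at least 10.4-fold lower. The core helicase genes MCM2 (-2.86), MCM7 (-2.22), MCM3 (-2.14), MCM4 (-2.09), MCM5 (-1.62) and MCM6 (-0.72) were all lower. CCNE1, the cyclin of S phase entry, was at -2.20 and UHRF1, which copies DNA methylation, at -3.14. PCNA, the sliding clamp, was at -1.09, and the replication factor C genes lay between -2.11 for RFC5 and -0.96 for RFC2. CDT1 stood at -1.11 under dilazep and 1.04 with vehicle. E2F1 (0.05), ORC6 (-0.02), DUT (-0.18), GINS1 (-0.29) and CDC6 (-0.16, above background in neither line) were not called.

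E2F factors bind sites written here as TTTGGCGC or TTTCGCGC. Of 35 promoters of the list held in RefSeq (GRCh38.p14, 250 bases before to 50 after the start), 11 had such a match on either strand (31.4%), against 200 of 9568 promoters of genes tested (2.09%). The motif was chosen from what is known of the list, and every member counts whatever its line difference. The share describes the list and does not bear on the difference between the lines. The 2 members with a match and the largest differences were DTL (chr1:212035498-212035797, plus strand, match from base -8 relative to the start) and MCM2 (chr3:127598161-127598460, plus strand, 2 overlapping matches from base 2). They are printed 5′ to 3′ with the matches in capitals, as examples of what the counts refer to.
DTL: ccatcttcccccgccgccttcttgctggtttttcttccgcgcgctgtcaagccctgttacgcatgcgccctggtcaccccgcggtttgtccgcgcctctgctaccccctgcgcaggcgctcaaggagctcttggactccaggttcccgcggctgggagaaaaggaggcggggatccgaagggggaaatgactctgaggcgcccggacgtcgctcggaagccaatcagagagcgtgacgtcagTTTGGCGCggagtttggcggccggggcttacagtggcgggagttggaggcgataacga
MCM2: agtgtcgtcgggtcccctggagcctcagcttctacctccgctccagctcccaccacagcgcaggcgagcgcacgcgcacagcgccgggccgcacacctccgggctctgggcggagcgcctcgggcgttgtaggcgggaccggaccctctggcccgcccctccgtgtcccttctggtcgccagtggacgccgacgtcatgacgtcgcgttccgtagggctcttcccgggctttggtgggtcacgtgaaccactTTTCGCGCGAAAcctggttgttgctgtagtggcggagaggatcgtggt
A match is a run of letters and does not show that a factor binds there.

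Genes of mitosis were lower in LNCaP-abl at 51 of 53 measured, with 0 higher, a median of -2.09 and a median of -2.05 with 10 members at their bound. The vehicle median was 0.14. The change was more negative at 50 of 53 and more positive at 0, where 17.9% and 15.9% of all genes were. Among all genes tested, 28.8% were lower under dilazep and 25.8% higher. The kinases were lower at 11 of 11, the spindle and kinesin genes at 20 of 20, the cyclins and anaphase genes at 10 of 11 and the genes of chromosome structure at 10 of 11.

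NCAPG, a condensin subunit that folds mitotic chromosomes, had 5.32, 5.48 and 5.23 in LNCaP-abl against 8.90, 9.20 and 9.21 in LNCaP (-3.76, SE 0.13, adjusted p = 4.1e-10 in limma). It was detected on 1 of 3 LNCaP-abl dilazep arrays. With vehicle its means were 10.37 ± 0.19 and 10.35 ± 0.15 (SD, n = 4 each), a difference of 0.02. TOP2A, which untangles DNA before division, had 5.23, 5.92 and 5.60 in LNCaP-abl against 8.95, 8.80 and 8.81 in LNCaP (-3.27). The lines thus lay apart under dilazep at 2 genes whose vehicle differences were 0.02 and -0.06.

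AURKB, the kinase of the chromosomal passenger complex, was at least 5.68-fold lower under dilazep and higher by 0.77 with vehicle. CEP55, needed for the last cut between daughter cells, was at -2.81, and UBE2C, which helps to degrade cyclins, at -2.95, although its other probe gave -0.05. CDK1 (-2.17), CCNB1 (-2.42), CCNB2 (-2.53), BIRC5 (-2.54), CENPF (-2.72) and NUSAP1 (-2.78) were further examples. FOXM1, a transcription factor of the mitotic genes, had 5.89, 6.42 and 6.4 in LNCaP-abl against 8.58, 8.74 and 8.08 in LNCaP (-2.23, SE 0.20, adjusted p = 1.5e-06 in limma). MYBL2 (-0.36, not above background in LNCaP-abl) and NCAPH (0.03, above background in neither) were not called. MKI67, the proliferation marker, was called at -0.79, but its bound was at least 1.01-fold.

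The cell cycle homology region, searched as TTTGAA on both strands, was found in 31 of 46 promoters of the mitosis list (67.4%) against 952 of 9568 (9.95%). The E2F sites were found in 3 of the 46 (6.52%). The 2 members with a match and the largest differences were NCAPG (chr4:17810729-17811028, plus strand, match from base -35) and TOP2A (chr17:40417847-40418146, minus strand, 2 matches, the first from base -194), printed as above with matches in capitals.
NCAPG: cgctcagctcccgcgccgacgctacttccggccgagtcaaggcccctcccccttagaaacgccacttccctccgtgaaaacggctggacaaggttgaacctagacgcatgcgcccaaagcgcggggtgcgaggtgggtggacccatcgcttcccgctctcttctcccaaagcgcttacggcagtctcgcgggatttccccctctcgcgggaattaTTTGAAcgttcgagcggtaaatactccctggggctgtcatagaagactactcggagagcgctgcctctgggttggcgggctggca
TOP2A: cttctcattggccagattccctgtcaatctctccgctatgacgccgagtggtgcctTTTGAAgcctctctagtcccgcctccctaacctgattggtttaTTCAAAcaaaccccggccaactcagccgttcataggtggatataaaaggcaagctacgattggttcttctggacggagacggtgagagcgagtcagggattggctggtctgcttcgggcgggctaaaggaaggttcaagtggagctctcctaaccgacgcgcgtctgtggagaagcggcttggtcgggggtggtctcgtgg
The motifs here, above and below were chosen from textbook knowledge of the lists and with the line differences known. Their counts take in all list members and do not bear on the difference between the lines.

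**Figure D3:**
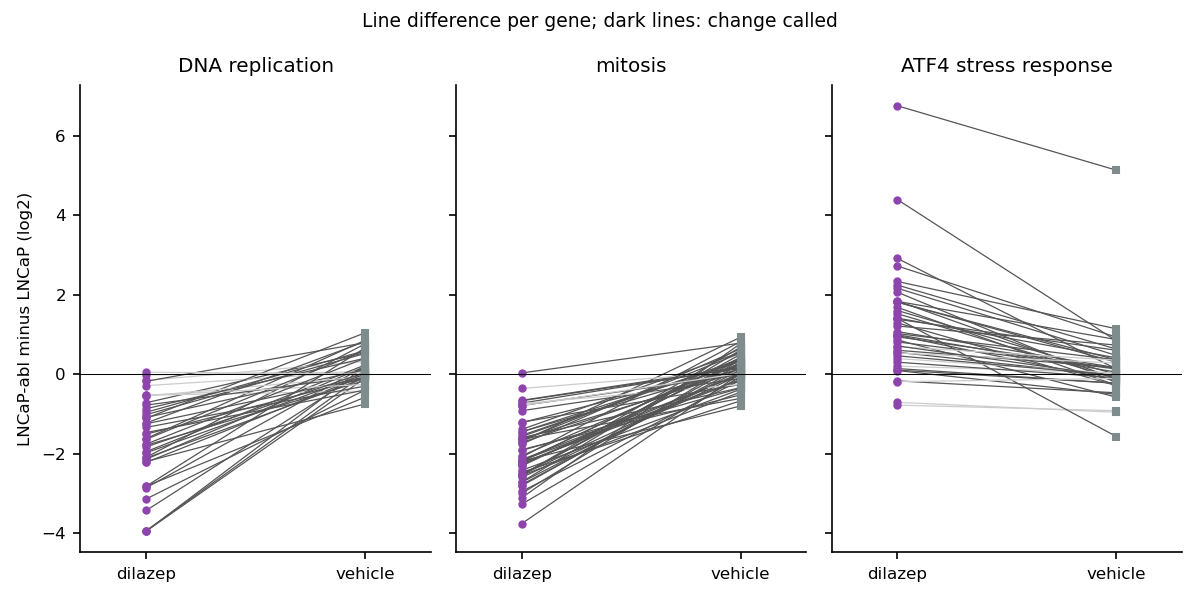
Line difference (LNCaP-abl minus LNCaP, log2) of each measured gene under dilazep (circles) and with vehicle (squares), joined by a line that is dark where the change was called. The 40 DNA replication and 53 mitosis genes lie mostly below 0 under dilazep and around 0 with vehicle, while the 43 ATF4 genes lie mostly above 0 under dilazep.

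Of the 273 genes called lower under dilazep and higher with vehicle, the 6 with the largest differences under dilazep were CENPU (-3.12 under dilazep and 0.41 with vehicle), a kinetochore protein, AURKB (-3.11 and 0.77), CDCA5 (-3.00 and 0.37), which protects sister chromatid cohesion, EXO1 (-2.92 and 0.19), a repair exonuclease, POLQ (-2.83 and 0.47), the polymerase of end joining, and TK1 (-2.82 and 0.66), thymidine kinase. EXO1 and AURKB had no LNCaP-abl dilazep array above background and were at least 4.66-fold and 5.68-fold lower, and another probe of EXO1 gave -0.50. CENPU was detected on 1 of 3 LNCaP-abl dilazep arrays. TK1 had 6.77, 6.95 and 6.60 in LNCaP-abl against 9.48, 9.68 and 9.61 in LNCaP under dilazep.

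The CDK inhibitors did not follow a single direction, nor did the targets of p53. Of 18 measured genes, 4 were higher and 6 lower in LNCaP-abl (median -0.05), against 25.8% higher and 28.8% lower over all genes. CDKN2B, an inhibitor of the G1 kinases, had 7.19, 7.42 and 7.57 in LNCaP-abl against 5.21, 5.26 and 5.28 in LNCaP and was at least 4.20-fold higher, with a second probe at 1.42. CDKN1A, the p21 inhibitor, was at 0.70 and CDKN2D at 0.91, both higher. BAX, a pore former of apoptosis, was at least 3.45-fold lower, although another probe gave -0.58. TP53I3, a p53-induced reductase, was at least 1.99-fold lower, and both had vehicle differences of like size (-2.03 for BAX and -1.27 for TP53I3). MDM2 (0.00, not above background in one line), BBC3 (0.18) and TNFRSF10B (0.13) were not called. With median scaling 10 genes of this list were lower.

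Genes of the ATF4 stress response were higher in LNCaP-abl under dilazep. Of 43 measured, 35 were higher and 2 lower, with a median of 1.02 under dilazep and 0.03 with vehicle. The change was more positive at 36 of 43 and more negative at 0, where 15.9% and 17.9% of all genes were. Among all genes tested, 25.8% were higher under dilazep and 28.8% lower.

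Among the transcription factors and feedback genes 13 of 14 were higher (median 1.83), where 25.8% of all genes were. ATF4 had 14.30, 14.42 and 14.30 in LNCaP-abl against 13.55, 13.51 and 13.53 in LNCaP (0.81, SE 0.08, adjusted p = 4.9e-06 in limma), and other probes gave 0.65 and 1.3. DDIT3, the CHOP factor that ATF4 induces, had 11.54, 11.46 and 11.38 in LNCaP-abl against 8.74, 8.78 and 8.71 in LNCaP (2.72, SE 0.10). The vehicle differences were 0.13 for ATF4 and 0.93 for DDIT3. CHAC1, which breaks down glutathione, had 7.74, 7.58 and 7.89 in LNCaP-abl, while no LNCaP dilazep array detected it (4.82, 4.80 and 4.87), and it was at least 5.33-fold higher. STC2 (2.33), a secreted stress protein, NUPR1 (2.24), TRIB3 (2.16), a pseudokinase that restrains ATF4, ATF3 (2.06), SESN2 (1.84) and PPP1R15A (1.81), which restores translation, were further examples. ATF5 was lower (-0.78 under dilazep and -0.92 with vehicle).

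Of 8 amino acid transporters 5 were higher (median 1.39), where 25.8% of all genes were. SLC7A11, the cystine importer, had 9.64, 9.58 and 9.79 in LNCaP-abl against 5.11, 5.60 and 5.13 in LNCaP, where 1 of 3 arrays detected it (4.39, SE 0.20, adjusted p = 5.4e-09 in limma). Its vehicle difference was 0.84. SLC3A2, the partner chain of SLC7A5 and SLC7A11, was at 1.83, the glycine transporter SLC6A9 at 1.81 and the glutamine transporter SLC1A5 at 0.97. SLC7A1 (0.10), SLC1A4 (0.20) and SLC38A2 (0.09) were not called.

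Of 11 synthesis enzymes 8 were higher (median 0.94), where 25.8% of all genes were. PCK2, the mitochondrial carboxykinase, was at 1.68 and with vehicle at -0.28. Other probes gave 1.91 and 2.54 for PCK2. ASNS, which makes asparagine, was at 1.52, CTH, which makes cysteine, at 1.40 under dilazep and -1.57 with vehicle, PSAT1 at 1.29 and PHGDH at 1.21, both of serine synthesis. ALDH18A1 of proline synthesis was lower (-0.71). The tRNA synthetase genes were higher at 9 of 10 (median 0.57), from EPRS1 at 0.39 to SARS1 at 1.41, with AARS1 at -0.19 not called.

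The composite element that ATF4 and its C/EBP partners bind, searched as TGATGNAA on both strands, was found in 10 of 37 promoters of the list (27%) against 170 of 9568 (1.78%). The 2 members with a match and the largest differences were CHAC1 (chr15:40953221-40953520, plus strand, match on the other strand from base -209) and ATF3 (chr1:212565157-212565456, plus strand, match from base -191), printed with the match in capitals.
CHAC1: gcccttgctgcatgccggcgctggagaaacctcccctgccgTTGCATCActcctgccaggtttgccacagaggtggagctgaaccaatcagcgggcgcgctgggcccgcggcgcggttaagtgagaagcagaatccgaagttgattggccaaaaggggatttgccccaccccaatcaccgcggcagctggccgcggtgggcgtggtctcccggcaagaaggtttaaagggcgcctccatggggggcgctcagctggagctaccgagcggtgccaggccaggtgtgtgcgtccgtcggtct
ATF3: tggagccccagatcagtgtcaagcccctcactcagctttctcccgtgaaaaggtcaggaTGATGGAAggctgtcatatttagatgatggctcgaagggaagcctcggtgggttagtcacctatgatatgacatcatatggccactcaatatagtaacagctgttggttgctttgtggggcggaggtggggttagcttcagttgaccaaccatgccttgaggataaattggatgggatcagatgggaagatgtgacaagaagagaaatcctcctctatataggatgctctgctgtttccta
No match says only that these letters are not in the window.

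Genes of the NRF2 antioxidant response were higher in LNCaP-abl at 13 of 16, with 2 lower and a median of 1.28 (1.15 with 1 member at its bound, and 0.36 with vehicle). The change was more positive at 11 of 16 and more negative at 0, where 15.9% and 17.9% of all genes were. Among all genes tested, 25.8% were higher under dilazep and 28.8% lower. SLC7A11 and ME1 stand in this list and in another. SRXN1, which restores oxidised peroxiredoxins, had 12.32, 12.23 and 12.18 in LNCaP-abl against 10.17, 10.31 and 10.30 in LNCaP (1.98, SE 0.09, adjusted p = 3.1e-09 in limma), and its vehicle difference was -0.03. TXNRD1, thioredoxin reductase, was at 1.94, the glutathione synthesis genes GCLC at 2.21 and GCLM at 2.66, although another probe of GCLM gave -0.12. NFE2L2, which encodes NRF2, was at 0.91, NQO1 at 1.33 and HMOX1 at 0.50. The metallothioneins MT1X (-1.24) and MT2A (-0.28) were the 2 lower members. The antioxidant response element, searched on both strands as TGAC and GCA with any 3 letters between, was found in 1 of 14 promoters (7.14%) against 2.92% of all.

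Genes of the endoplasmic reticulum's unfolded protein response were higher in part. Of 18 genes 11 were higher and 3 lower (median 0.34 under dilazep and 0.30 with vehicle), and the change was more positive at 6 and more negative at 6. Over all genes 25.8% were higher and 28.8% lower, and the change was more positive at 15.9% and more negative at 17.9%. SEL1L, of the degradation complex, was at least 3.87-fold higher, DNAJB9 at 1.89, EDEM1 at 1.32 and XBP1, the transcription factor of this response, at 1.07. DNAJB9 had 10.98, 11.13 and 11.12 in LNCaP-abl against 9.12, 9.26 and 9.16 in LNCaP. The protein disulfide isomerase PDIA4 (-1.35), CRELD2 (-0.60) and HSP90B1 (-0.48) were lower. HSPA5, the chaperone BiP, stood at 0.12 and was not called, with a vehicle difference of -1.05. With median scaling 7 genes were higher and 5 lower, and 7 were higher without LNCaP-abl replicate 2.

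MYC was lower in LNCaP-abl, and part of the ribosome biogenesis genes were lower with it. MYC had 8.80, 9.03 and 9.00 in LNCaP-abl against 10.76, 10.73 and 10.65 in LNCaP (-1.77, SE 0.12, adjusted p = 1.7e-07 in limma), and another probe gave -0.99. Its vehicle difference was -0.50 and the change of -1.28 was called. Of 28 genes of the MYC network and ribosome biogenesis, 4 were higher and 12 lower (median -0.32 under dilazep and 0.14 with vehicle), and the change was more negative at 13 and more positive at 3, where 17.9% and 15.9% of all genes were. The 22 nucleolar genes had 11 lower and 1 higher (median -0.43), among them LYAR (-1.23), FBL (-0.98), the methyltransferase of ribosomal RNA, and NOP56 (-0.93). MAX, the partner of MYC, was higher at 0.93 and the MYC antagonist MXD1 at 0.76. Among all genes tested, 25.8% were higher and 28.8% lower. With median scaling 19 genes of the list were lower.

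**Figure D4:**
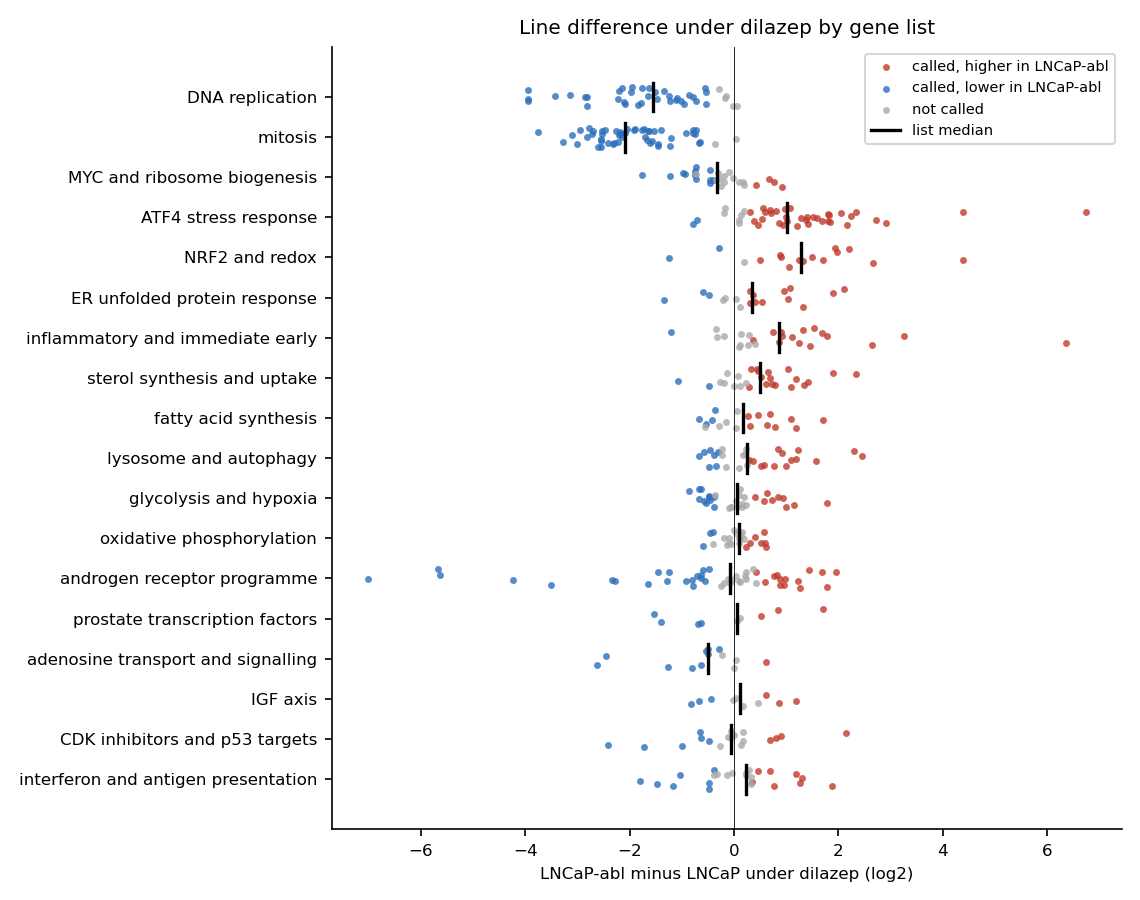
Line difference under dilazep (LNCaP-abl minus LNCaP, log2) of each measured gene in 18 lists, coloured by call, with a black bar at the list median. The DNA replication and mitosis medians lie at -1.56 and -2.09 and those of the ATF4 and NRF2 lists at 1.02 and 1.28, while most other medians lie within 0.50 of 0.

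GATA2 itself was lower in LNCaP-abl under dilazep. Its levels were 7.91, 7.94 and 7.95 in LNCaP-abl against 8.66, 8.62 and 8.41 in LNCaP (-0.64, SE 0.11, adjusted p = 3.3e-04 in limma). The groups did not overlap, as at 62.2% of all genes tested. With vehicle the means were 8.86 ± 0.15 in LNCaP-abl and 8.50 ± 0.06 in LNCaP (SD, n = 4 each), a difference of 0.35, so that the lines stood in the opposite order. The labels give dilazep as an agent against GATA2, and its transcript was present on all 6 dilazep arrays.

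Of 9 measured prostate transcription factors 3 were higher and 4 lower (median 0.05, and -0.22 with median scaling), beside 25.8% and 28.8% of all genes. HOXB13, a homeobox factor of the prostate, had 9.37, 9.42 and 9.02 in LNCaP-abl against 10.84, 10.68 and 10.91 in LNCaP (-1.54, SE 0.13), with a vehicle difference of -0.29. ELF3, an epithelial ETS factor, was higher at 1.71 and GRHL2 at 0.84, while ONECUT2 was at -1.40, with other probes at -0.46 and -0.93, and SPDEF at -0.69. FOXA1, the pioneer factor beside the androgen receptor, had 12.88, 12.95 and 12.91 in LNCaP-abl and 12.90, 12.79 and 12.73 in LNCaP, with overlapping groups (0.11, adjusted p = 0.320 in limma, and -0.12 with median scaling). HNF4G was called at 0.52 but was above background in neither line.

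Genes of the androgen receptor programme were split. Of 47 measured, 14 were higher and 20 lower (median -0.08 under dilazep and -0.19 with vehicle), and the change was more positive at 13 and more negative at 14. Of all genes tested, 25.8% were higher and 28.8% lower, and the change was more positive at 15.9% and more negative at 17.9%. KLK3, which encodes prostate-specific antigen, had 4.65, 5.09 and 4.82 in LNCaP-abl, with no array above background, against 9.17, 9.32 and 8.79 in LNCaP. It was at least 13.4-fold lower (adjusted p = 2.8e-09 in limma). With vehicle KLK3 was measured in both lines, at -2.98.

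KLK2, the neighbouring kallikrein, had 6.16, 5.82 and 6.50 in LNCaP-abl against 8.50, 8.50 and 8.47 in LNCaP (-2.33, SE 0.18, adjusted p = 6.0e-07 in limma). With vehicle its means were 8.55 ± 0.24 and 8.55 ± 0.26 (SD, n = 4 each) and its difference 0.00. TMPRSS2, an androgen-driven serine protease, went the other way, with 12.71, 13.08 and 12.82 in LNCaP-abl against 12.31, 12.21 and 12.29 in LNCaP (0.60, SE 0.12, adjusted p = 9.9e-04 in limma). The 3 genes, all driven by androgen, thus had line differences of both signs.

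Of the 27 other androgen-induced genes 9 were higher and 12 lower, among them PMEPA1 above, the channel KCNMA1 (-2.28), SLC45A3 (-1.28) and FKBP5 (-0.71) on the lower side. LIFR (1.79), ADAMTS1 (1.26), NDRG1 (1.22), TSC22D3 (0.98) and the metalloreductases STEAP1 and STEAP2 (0.88 each) were higher. Of 16 androgen-repressed genes 5 were higher and 6 lower. For both groups the shares over all genes were 25.8% higher and 28.8% lower. CLDN8 (1.95), DDC (1.43), which makes dopamine, and OPRK1 (at least 2.89-fold higher) were on the higher side, with BCHE and TMEFF2 above and CAMK2N1 (-3.51) on the lower side. UGT2B17 had a vehicle difference of 1.6 and stood at 0.23 under dilazep, not called. The UGT2B genes are close copies whose probes may not tell them apart.

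**Figure D5:**
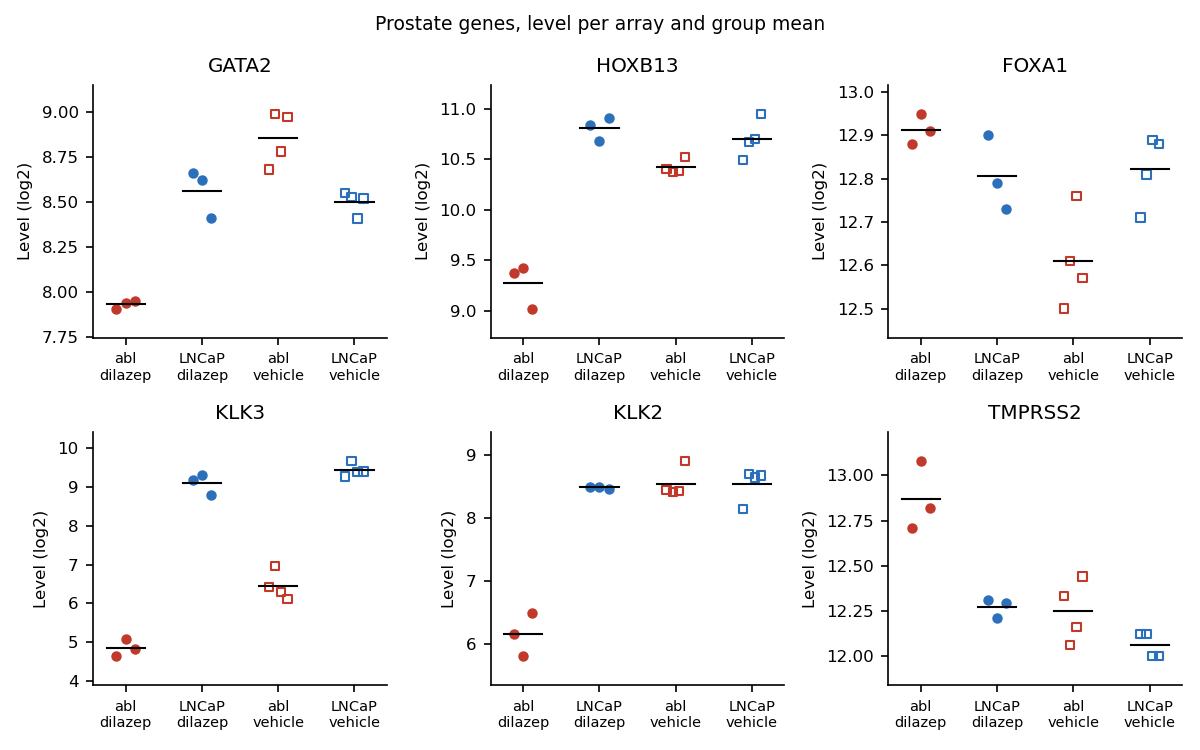
Normalised level (log2) of 6 prostate genes on each array, with circles for dilazep, open squares for vehicle and bars for group means, and LNCaP-abl in red left of LNCaP in blue. Each panel has its own axis. GATA2, HOXB13, KLK2 and KLK3 lie lower in LNCaP-abl under dilazep, TMPRSS2 lies higher and the FOXA1 arrays overlap.

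Sterol genes were mostly higher in LNCaP-abl. Of 26 genes of sterol synthesis and uptake 17 were higher and 2 lower (median 0.49 under dilazep and 0.20 with vehicle), and the change was more positive at 10 and more negative at 3. Over all genes 25.8% were higher and 28.8% lower, and the change was more positive at 15.9% and more negative at 17.9%. With median scaling the median of these sterol genes was 0.25. NPC1, which lets cholesterol out of lysosomes, had 10.61, 10.48 and 10.59 in LNCaP-abl against 8.26, 8.19 and 8.22 in LNCaP (2.34, SE 0.08, adjusted p = 6.0e-10 in limma). IDI1, of the mevalonate arm, had 13.48, 13.50 and 13.46 against 12.07, 12.09 and 12.05 in LNCaP (1.41). MVD was at 1.90, SQLE, the squalene epoxidase, at 1.35 with another probe at 2.12, SC5D at 1.19, LSS at 1.10 and the SREBP anchor INSIG1 at 1.04. HSD17B7 (-1.08) and PMVK (-0.48) were lower. The mevalonate arm had 4 of 7 higher, the later steps 7 of 10 and the uptake, export and control genes 6 of 9.

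Fatty acid genes had 9 of 18 higher and 4 lower (median 0.17), beside 25.8% and 28.8% of all genes. ME1, malic enzyme, was at 1.71, LPIN1, a phosphatidate phosphatase, at 1.19 and the elongase ELOVL6 at 1.10, with another probe at 1.91. For ELOVL6 the vehicle difference was the larger one, at 2.03. FADS2 (-0.67), ACACA (-0.54), FADS1 (-0.43) and ACSS2 (-0.37) were lower. With median scaling 5 were higher and the median was 0.05.

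Of 29 lysosome and autophagy genes 14 were higher and 7 lower (median 0.25, and 0.00 with median scaling), with the change more positive at 10 and more negative at 3. The shares over all genes were 25.8% higher and 28.8% lower, and 15.9% and 17.9% for the change. The autophagy genes had 8 of 13 higher and 1 lower, and the lysosomal proteins 6 of 16 higher and 6 lower. SQSTM1, the autophagy receptor p62, had 14.79, 14.81 and 14.62 in LNCaP-abl against 12.39, 12.44 and 12.47 in LNCaP (2.30, SE 0.10, adjusted p = 3.1e-09 in limma), with a vehicle difference of 1.91. WIPI1 was at 2.45, NEU1, a lysosomal sialidase, at 1.58, GABARAPL2 at 1.23, OPTN at 1.18 and MAP1LC3B at 1.09. CTSB (-0.67), GAA (-0.57) and LAMP2 (-0.38) were lower. MAP1LC3A, at least 42.1-fold lower, stands outside this list.

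Inflammatory and immediate early genes were higher in LNCaP-abl at 15 of 25 measured, with 1 lower, where 25.8% and 28.8% of all genes were. The median was 0.86, or 0.36 with 8 members at their bound, and 0.04 with vehicle. The change was more positive at 12 and more negative at 2, where 15.9% and 17.9% of all genes were. CXCL8, a chemokine of neutrophils, had 8.65, 8.40 and 8.51 in LNCaP-abl against 5.78, 5.90 and 5.96 in LNCaP (2.64, SE 0.12, adjusted p = 5.1e-09 in limma), and another probe gave 5.76. MMP10, a matrix metalloproteinase, had 8.06, 8.53 and 8.23 in LNCaP-abl and was not detected in LNCaP (5.11, 4.88 and 5.10), at least 7.73-fold higher. With vehicle no LNCaP-abl array and 2 of 4 LNCaP arrays detected MMP10, at mean levels of 4.71 and 5.31. JUN (1.79), KLF4 (at least 2.01-fold), FOS (at least 2.39-fold), DUSP6 (1.46) and EGR1 (1.33) were higher, and NFKB1 was lower (-1.21). PHLDA1 had a vehicle difference of 3.35 and stood at 0.26 under dilazep, not called.

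Of the 216 genes called higher under dilazep and lower with vehicle, MMP10 had the largest difference under dilazep (3.25, and -0.61 with vehicle, where its signal lay at the detection limit). The next were BEX4 (1.94 and -0.49), GNG12 (1.77 and -0.63), a G protein gamma subunit at least 2.20-fold higher under dilazep and detected with vehicle on 1 of 4 LNCaP-abl arrays and 4 of 4 LNCaP arrays, ID2 (1.75 and -0.29), an inhibitor of helix-loop-helix factors, PCK2 (1.68 and -0.28) and XPOT (1.61 and -0.68), which exports tRNA. ID2 had 9.60, 9.69 and 9.61 in LNCaP-abl against 8.11, 7.81 and 7.73 in LNCaP.

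Of the genes whose change was called and which were not called with vehicle, the 6 largest higher ones were CHAC1, ANKRD1, ASPH, GCLM, TLCD4 and NCKAP1. ANKRD1, a target of YAP and TEAD factors, had 7.79, 7.63 and 7.61 in LNCaP-abl and was undetected in LNCaP (at least 5.11-fold), and it was undetected with vehicle in both lines. ASPH, an aspartyl hydroxylase, was at 2.76 with other probes at 0.58 and 2.24, TLCD4 was at least 4.6-fold higher, and NCKAP1, of the WAVE actin complex, was at 2.39. The 6 largest lower ones were CDC45, MCM10, DTL, NCAPG, GINS2 and TOP2A, all of the cell cycle lists above.

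Transcripts of the transporters that dilazep acts on were undetected or differed little between the lines under dilazep. Protein was not measured. SLC29A1, the equilibrative transporter ENT1, was above background on none of the 6 dilazep arrays (5.11, 5.25 and 4.91 in LNCaP-abl and 4.98, 5.10 and 5.18 in LNCaP), so no difference can be given. SLC29A2, the transporter ENT2, had 9.39, 9.32 and 9.41 in LNCaP-abl against 9.65, 9.75 and 9.58 in LNCaP (-0.29, SE 0.11, adjusted p = 0.0389 in limma), a call that was lost when any of 5 of the 6 dilazep arrays was left out. Of 13 genes of adenosine transport and signalling 1 was higher and 9 lower (median -0.50 under dilazep and -0.27 with vehicle), and the change was more negative at 7 and more positive at 0. Over all genes 25.8% were higher and 28.8% lower, and the change was more negative at 17.9% and more positive at 15.9%. ADA, adenosine deaminase, had 4.67, 5.02 and 5.71 in LNCaP-abl against 7.72, 7.75 and 7.82 in LNCaP (-2.63), and its vehicle difference was -2.11. It was detected on 1 of 3 LNCaP-abl dilazep arrays. SLC29A4, a monoamine transporter of the same family, was at -2.46 with another probe at -0.69, and the receptor gene ADORA2B was at least 1.92-fold lower. DPP4, which binds adenosine deaminase at the cell surface, was at least 1.23-fold higher.

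The IGF axis had 3 of 10 higher and 3 lower (median 0.11), shares near the 25.8% and 28.8% of all genes. IRS1, a docking protein of the receptor, was at least 1.45-fold higher, IGF2BP2 was at 0.86 and GRB10, an adaptor that restrains the receptor, at 0.62, with a vehicle difference of 2.70. IRS2 (-0.82), IGFBP2 (-0.67) and IGF2R (-0.44) were lower. IGF2, a ligand, was detected on 1 of 3 LNCaP-abl arrays and on no LNCaP array, and was not called (0.18, adjusted p = 0.4 in limma).

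Genes of glycolysis and of the hypoxia response stood at 9 higher and 11 lower of 32 measured (median 0.05, and -0.12 with median scaling), with a vehicle median of 0.42. These counts lie near the shares over all genes, 25.8% higher and 28.8% lower. The change was more negative at 14 and more positive at 1, where 17.9% and 15.9% of all genes were. The glycolysis genes had 4 of 19 higher and 9 lower (median -0.37 under dilazep and 0.53 with vehicle). PFKP (-0.48 under dilazep and 1.32 with vehicle), PKM (-0.39 and 0.74) and PFKFB3 (-0.67 and 1.27) were lower in LNCaP-abl under dilazep, with vehicle values of the opposite sign. ENO2, the neuronal enolase, had 10.82, 11.10 and 11.04 in LNCaP-abl against 9.89, 9.90 and 9.69 in LNCaP (1.16), with a vehicle difference of 3.38. ALDOA was at 0.99, with another probe at 1.76, and VEGFA, a vascular growth factor, at 1.79. The respiratory subunits had 7 of 25 higher and 3 lower (median 0.10), from ATP5MC1 at -0.59, where another probe gave 0.34, to SDHC at 0.61, with COX6C at 0.60 and COX5B at 0.57. With median scaling 2 were higher and 8 lower (median -0.15), so no direction is given for them.

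Of 24 interferon and antigen presentation genes 8 were higher and 7 lower (median 0.24), near the 25.8% and 28.8% over all genes. ISG15, a ubiquitin-like protein, had 8.38, 8.31 and 8.45 in LNCaP-abl against 10.25, 10.05 and 10.27 in LNCaP, and its difference was -1.81 under dilazep and with vehicle. TAP2 was at least 1.87-fold lower, IFI6 at -1.17 and HLA-B at -0.48. IFIT2 (1.88), B2M (1.3), the light chain of class I molecules, ISG20 (1.26) and IFI35 (1.19) were higher. B2M and ISG20 had vehicle differences of -0.12 and -0.38.

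The 13 luminal markers had 3 higher and 5 lower (median -0.25). Shares over all genes, for this list and the next ones, were 25.8% higher and 28.8% lower. CLDN3, a tight junction protein, was at least 18.2-fold lower, KRT8 was at -0.86 and CDH1, E-cadherin, at 1.25. The 6 measured neuroendocrine markers had 2 higher and 2 lower (median 0.33), with SYT4 and the neuropeptide gene NMU (-0.56) lower and ENO2 and SCN3A (at least 1.25-fold) higher. Among 4 basal and mesenchymal markers TWIST1 was at least 1.59-fold lower and SNAI2 was called at 0.67 with overlapping groups and another probe at -0.42 (median 0.06). No call was made among 2 fibroblast markers (median -0.13), while the endothelial VWF was lower at -1.75 and the immune LYZ was called higher with a bound of at least 1.07-fold (median 0.10 over 4 immune markers). VWF was detected on 1 of 3 LNCaP-abl dilazep arrays.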

How the data were processed

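Total RNA of 14 samples was measured on Illumina BeadChip arrays. The deposited main table gives, for each array, linear intensity values of the probes and a detection p-value for each, per the file headers. The intensity values show no scaling by the authors. That table's header has a further line of sample numbers, some of which disagree with the descriptions in the labels, so its columns were assigned through the sample titles. A second deposited table holds the authors' processed values on a log2 scale, made with lumi, version unstated, per the submitters' processing notes. It was used as an alternative, and its normalization is not given in the sources used here.

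Of 47323 distinct probes, those with a detection p under 0.05 on at least 2 of the 14 arrays were kept, 24894 in all. Signals were corrected by normexp with negative controls inferred from the detection p, offset by 16, quantile normalised and turned to log2 (limma 3.58.1 in R 4.3.3). Symbols came from the platform annotation and RefSeq, and a gene took the kept probe of highest mean level, for 11983 genes. Other probes of a named gene are given where they differed in call or by over 1.5 times. The 14 arrays entered a single limma model (lmFit, eBayes) of 6 group means, two-sided, with Benjamini-Hochberg adjustment over all genes. The vehicle mean is that of the H2O and DMSO means. The fit was tested on simulated data.

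The members and lists were chosen with earlier results of these data known. The 24 lists covered cell cycle, stress, lipid, androgen, metabolic and signalling genes and cell type markers. Genes were named by rule, and every ranking by size passed over genes with placeholder or read-through symbols. The rule took the 12 largest called differences each way (detected on all 3 arrays of a group, groups apart), the 3 smallest p per list, the 6 largest each way that were shared with vehicle, opposite to it or new to dilazep, and 15 fixed genes, of which 13 were tested and the others not analysed here. Other list members named are examples chosen after their values were seen. Figures used matplotlib 3.10.9 (Python 3.11.15). Alternatives were median scaling, no background correction, the processed values, the 6 dilazep arrays alone, stricter and no detection filters, the mean of a gene's probes, an offset of 50, a trended and robust eBayes, each vehicle alone, a replicate block and leaving out each array. Numbers 1 and 2 are shared by the dilazep groups. The deviations of same-numbered arrays correlated at 0.03 and 0.03, and those of other pairs at -0.04 to 0.05. These values gave no sign of pairing by number. With so few arrays they cannot exclude it, and the main fit did not pair the arrays.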

Additional observations from a re-analysis of the deposited data

Results flagged for a closer look

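The line difference under dilazep differed from that with vehicle, by the test of the change in limma, at 4056 of 11983 genes (33.8%). Each value below is the difference under dilazep minus that with vehicle, on the log2 scale, with an adjusted p under 0.05.

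Among the genes with the largest higher differences the change was 3.79 at CCL20, 1.75 at LXN, 1.63 at SLC7A5, 1.16 at OR51E2, 1.03 at NXF2, 0.71 at MAGEA4 and -0.56 at CTAG2. Among those with the largest lower differences it was -4.04 at ANGPT2, -1.51 at SYT4, -1.33 at PMEPA1, -1.21 at EEF1A2, -0.59 at TMEM205 and at MAP1LC3A, -0.47 at COX7B2 and 0.37 at DSEL. Several of these rest on a bound in one line, as given with each gene.

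Of the genes with opposite calls the change was 3.85 at MMP10, 2.43 at BEX4, 2.40 at GNG12, 2.29 at XPOT, 2.04 at ID2 and 1.96 at PCK2. It was -3.88 at AURKB, -3.53 at CENPU, -3.48 at TK1, -3.37 at CDCA5, -3.30 at POLQ and -3.12 at EXO1. Of the genes not called with vehicle it was 2.78 at CHAC1, 2.68 at GCLM, 2.63 at ANKRD1, 2.41 at ASPH, 2.37 at TLCD4 and 2.02 at NCKAP1, and -4.14 at MCM10, -3.96 at DTL, -3.85 at CDC45, -3.77 at NCAPG, -3.52 at GINS2 and -3.22 at TOP2A. Among the fixed genes it was 1.79 at DDIT3, 0.68 at ATF4, -0.51 at SLC29A2, -0.99 at GATA2, -1.25 at KLK3, -1.26 at HOXB13, -1.28 at MYC, -2.08 at FOXM1 and -2.33 at KLK2.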

How the results depend on the processing

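Of 1845 values of named genes under an alternative, 1824 kept their direction and their side of the threshold, 14 lost the call and 7 turned sign. Median scaling gave 1987 genes higher under dilazep in place of 3088, 982 with a more positive change in place of 1907 and 3344 with a more negative one in place of 2149, with a median of all genes of -0.21. Differences of at least 1 numbered 840 without background correction, 575 with the authors' processed values and 1274 among genes detected on all 14 arrays, in place of 2051. With the processed values 70 of 109 called named genes differed in size by over 1.5 times (median ratio 0.534), and 59 without background correction (0.648). Leaving out each dilazep array gave 5960 to 6256 called genes (2808 to 2951 higher, 3142 to 3305 lower), 1952 to 2195 of at least 1 and 3423 to 3899 called changes (1616 to 1838 more positive, 1807 to 2061 more negative). The vehicle count ran from 5254 to 5536 over the same fits.

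The replicate block, whose numbers gave no sign of pairing the arrays, gave 5876 called genes (2739 higher, 3137 lower). It gave 1959 of at least 1, 3404 changes and 5940 with vehicle. It lost the calls of LYZ (0.41, adjusted p = 0.0650) and SLC29A2 (-0.33, adjusted p = 0.0561), and no other named call. SLC29A2 also lost its call without LNCaP-abl replicate 1, 2 or 3 and without LNCaP replicate 1 or 2. SNAI2 lost it without LNCaP replicate 1 or LNCaP-abl replicate 1 or 2, and with the mean of its probes (0.13), as did ATP5MC1 (-0.13). COX5B (0.25, adjusted p = 0.0524) lost it with median scaling and LYZ (0.10) with the processed values.

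Signs turned with median scaling at the medians of the respiratory (-0.15), basal (-0.07), immune (-0.09), prostate factor (-0.22) and glycolysis (-0.12) lists and at FOXA1 (-0.12). They turned with detection on all 14 arrays at the androgen (0.07), luminal (0.09), basal (-0.07), prostate factor (-0.29), IGF (-0.02), fibroblast (0.12) and keratin (0.09) medians, the basal one being -0.57 and the prostate factor one -0.29 with detection on 3 of 6. With the mean of a gene's probes the CDK inhibitor median was 0.09 and the glycolysis one -0.02 (-0.01 with the replicate block). The prostate factor median was -0.02 without LNCaP replicate 1 and -0.06 without LNCaP-abl replicate 2. SLC29A1 stayed between -0.08 and 0.00 where it turned (0.00 with median scaling, no correction or processed values, -0.05 without LNCaP replicate 1, -0.01 without LNCaP-abl replicate 1 and -0.08 without LNCaP-abl replicate 2). The cause was not tested.

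The median ran over the alternatives from -1.78 to -0.67 for DNA replication, -2.30 to -0.77 for mitosis, 0.71 to 1.17 for ATF4 genes and 1.03 to 1.35 for NRF2 genes. The counts of lower genes ran from 24 to 36 for DNA replication and 32 to 51 for mitosis, and of higher genes from 31 to 35 for ATF4 genes, 11 to 14 for NRF2 genes, 7 to 11 for the unfolded protein response, 12 to 18 for sterol genes and 5 to 16 for inflammatory genes. Fewer genes were tested with detection on all 14 arrays (8513), which gave the 32 and the 5. Without LNCaP-abl replicate 2, 7 genes of the unfolded protein response were higher in place of 11 and 2 inflammatory genes lower in place of 1. Without LNCaP-abl replicate 1 or LNCaP replicate 4, 4 lysosomal genes were lower in place of 7, and without LNCaP replicate 1 or 2 or LNCaP-abl replicate 2 or 3, 1 NRF2 gene was lower in place of 2. Line and medium cannot be told apart under any of these settings.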

Other observations

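Cancer-testis antigens and genes of epithelial junctions were listed after their values were seen, and their counts are descriptions. Of 27 cancer-testis antigens measured, 17 were higher in LNCaP-abl under dilazep and 5 lower (median 0.59 under dilazep and 0.45 with vehicle), where 25.8% and 28.8% of all genes tested were. Beside CT45A3, PAGE1, MAGEA4, CTAG2 and NXF2, large values were those of MAGEA1 (4.36), CT45A5 (at least 13.7-fold), CT45A1 (at least 9.51-fold), CTAG1A (at least 6.89-fold) and SAGE1 (2.08). VCX (-3.24), VCX3A (-2.89), PRAME (-1.03) and MAGEA10 (-0.96) were lower, so the family did not share a direction. The change was more positive at 4 and more negative at 5 of the 27, where 15.9% and 17.9% of all genes were. Their close copies may share probes, and only 9 were higher among genes detected on all 14 arrays.

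Of 27 keratins, claudins and adhesion genes, 8 were higher and 11 lower in LNCaP-abl (median -0.10 under dilazep and -0.32 with vehicle). Among all genes tested, 25.8% were higher and 28.8% lower. LAMB2, a laminin chain, was at least 17-fold lower, the desmosomal cadherins DSC2 and DSG2 were at -3.41 and -1.42, the nectin NECTIN2 at -2.06 and the laminin chain LAMA5 at -1.84. On the higher side were CLDN8 (1.95), KRT80 (1.5), CDH1 (1.25), the laminin receptor subunit ITGA6 (0.96), CLDN7 (0.90) and CLDN12 (0.72). KRT80 and CLDN12 had vehicle differences of 0.06 and 0.17 with a called change, while those of DSC2 (-3.84), LAMB2 (-3.92) and NECTIN2 (-1.90) were also large.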
